A study of Mus musculus with 8 samples.

Results

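The first week of carbon tetrachloride (CCl4) injury was compared with untreated mouse liver on 4 microRNA cards, 2 from each group, out of the 8 cards of the series. The members were the assays with a determined threshold cycle on all 4 of these cards, which were 182 of the 381 assays listed. All mice were C57B6 females that were 4 weeks old when treatment began. The 1 week group received CCl4 in corn oil by biweekly intraperitoneal injection, and the labels name no injection, vehicle or other treatment for the untreated group, so CCl4 and the injections in oil cannot be told apart. The labels give the dose as 1 mg/kg, and the methods of the study give the same number in ml/kg. Where the labels say biweekly, the methods give 2 injections a week. The labels number the cards as replicates 1 and 2 and do not say that they came from separate mice, so the p-values measure only the spread between these cards, which may be technical. The other 4 cards came from livers after 4 weeks and 8 weeks of the same injections, with 2 cards each.

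CCl4 is converted by cytochrome P450 enzymes of the hepatocyte into radicals that kill cells around the central vein. Leukocytes then enter, surviving hepatocytes divide, and hepatic stellate cells become collagen-producing myofibroblasts when the injury is repeated. A microRNA (miRNA) is a short RNA that represses messenger RNAs with sites matching its seed, bases 2 to 8 from its 5′ end, and miRNAs with the same seed are grouped as a family. Some miRNAs are nearly restricted to 1 lineage, such as miR-122 and miR-802 to hepatocytes and miR-223 to myeloid cells. In whole liver RNA, fewer cells of a type and less RNA per cell cannot be told apart.

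Each card is a set of TaqMan quantitative PCR assays, and the value of an assay is the threshold cycle (Ct), the cycle at which its signal crosses a set threshold. A lower Ct means more template. The Ct values below are as deposited, and each log2 difference was taken after centring: the level of an assay was the mean Ct of its card over the 168 assays determined on all 8 cards, minus the Ct of the assay. That card mean was 29.00 and 28.60 on the untreated cards and 29.25 and 29.07 at 1 week, and it ran from 28.03 to 30.37 on the 4 later cards. The untreated cards gave a Ct for 213 and 224 of the assays, and the 1-week cards for 205 and 219. Hepatocyte miRNAs were determined on every card, and miR-122 had Ct values of 21.95 and 22.39 untreated and 24.16 and 23.60 at 1 week.

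The mature sequences of 4 sets of miRNAs on which the results turn are given from RefSeq (GRCm38.p6), 5′ to 3′, with the seed in capitals. RefSeq names and assay names were matched by hand for 106 assays, of which 98 had a mature sequence. The first set comes from the imprinted Dlk1-Dio3 region on the plus strand of chromosome 12, whose miRNAs are expressed from the maternal chromosome. It is shown because it held the leading increases and, in miR-494, an opposite change, although no 2 of the 7 sequences have the same seed.
miR-409-3p: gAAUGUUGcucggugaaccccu
miR-410: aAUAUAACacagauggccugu
miR-411: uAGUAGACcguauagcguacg
miR-376a: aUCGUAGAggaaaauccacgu
miR-379: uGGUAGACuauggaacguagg
miR-434-3p: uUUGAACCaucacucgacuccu
miR-494: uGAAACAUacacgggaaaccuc
The miR-409-3p sequence lies at chr12:109743204-109743225 and that of miR-410 at chr12:109743764-109743784, both within the long noncoding RNA gene Mirg. The miR-434-3p sequence, at chr12:109594565-109594586, lies within the span of the paternally expressed gene Rtl1.

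The second set is the let-7 family, shown because its members have one seed and differ from each other in few bases.
let-7a: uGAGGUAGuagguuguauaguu
let-7c: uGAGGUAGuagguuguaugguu
let-7f: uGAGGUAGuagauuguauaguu
let-7g: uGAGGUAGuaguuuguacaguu
miR-98: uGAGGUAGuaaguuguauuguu
Over the 22 bases, let-7a differs from let-7c and from let-7f at 1 base and from let-7g and miR-98 at 2. The assays are specific to a sequence by design, and cross-detection between such neighbours was not tested. The third set is the miR-29 family, which represses collagen messenger RNAs.
miR-29a: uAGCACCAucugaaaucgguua
miR-29b: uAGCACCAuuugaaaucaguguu
miR-29c: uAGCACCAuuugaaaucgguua
The fourth set holds pairs of miRNAs with a shared seed, of which both members passed (miR-146a and miR-146b) or only 1 did (miR-193 and miR-193b, miR-27a and miR-27b, miR-15a and miR-16). In RefSeq the miR-193 assay corresponds to miR-193a-3p.
miR-146a: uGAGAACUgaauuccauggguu
miR-146b: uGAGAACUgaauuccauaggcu
miR-193: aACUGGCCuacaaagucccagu
miR-193b: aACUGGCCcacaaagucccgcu
miR-27a: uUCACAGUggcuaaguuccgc
miR-27b: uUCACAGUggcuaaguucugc
miR-15a: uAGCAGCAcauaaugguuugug
miR-16: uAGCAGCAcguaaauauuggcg
The members of the miR-146 pair differ at 2 bases, those of the miR-193 pair at 3, those of the miR-27 pair at 1, and miR-15a and miR-16 at 6.

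After 1 week of CCl4, 8 of 13 tested miRNAs of the Dlk1-Dio3 region, miR-146b and 4 of 5 leukocyte miRNAs were higher than in untreated liver. The other leukocyte miRNA, miR-142-3p, had a log2 difference of -0.35 and did not pass. miR-383, miR-29b, miR-494, miR-802 and 4 let-7 family members were lower. By limma over all 8 cards with Benjamini-Hochberg adjustment, 56 of the 182 assays (30.8%) passed an adjusted p of 0.05. Of these, 26 were higher at 1 week (14.3%) and 30 lower (16.5%). The median log2 difference over all 182 was -0.23, and it lay between -0.59 with no normalization and -0.08 with centring on the assays below Ct 35 on all cards, so list medians are read against it. Every one of the 56 had both 1-week cards outside the range of the untreated cards, but so did 77 of the 126 that did not pass. An exact permutation test of 2 cards against 2 cannot give a p below 0.333. The spread between replicate cards had a median SD of 0.31 on the log2 scale, and the median standard error of a difference was 0.40.

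**Figure D1:**
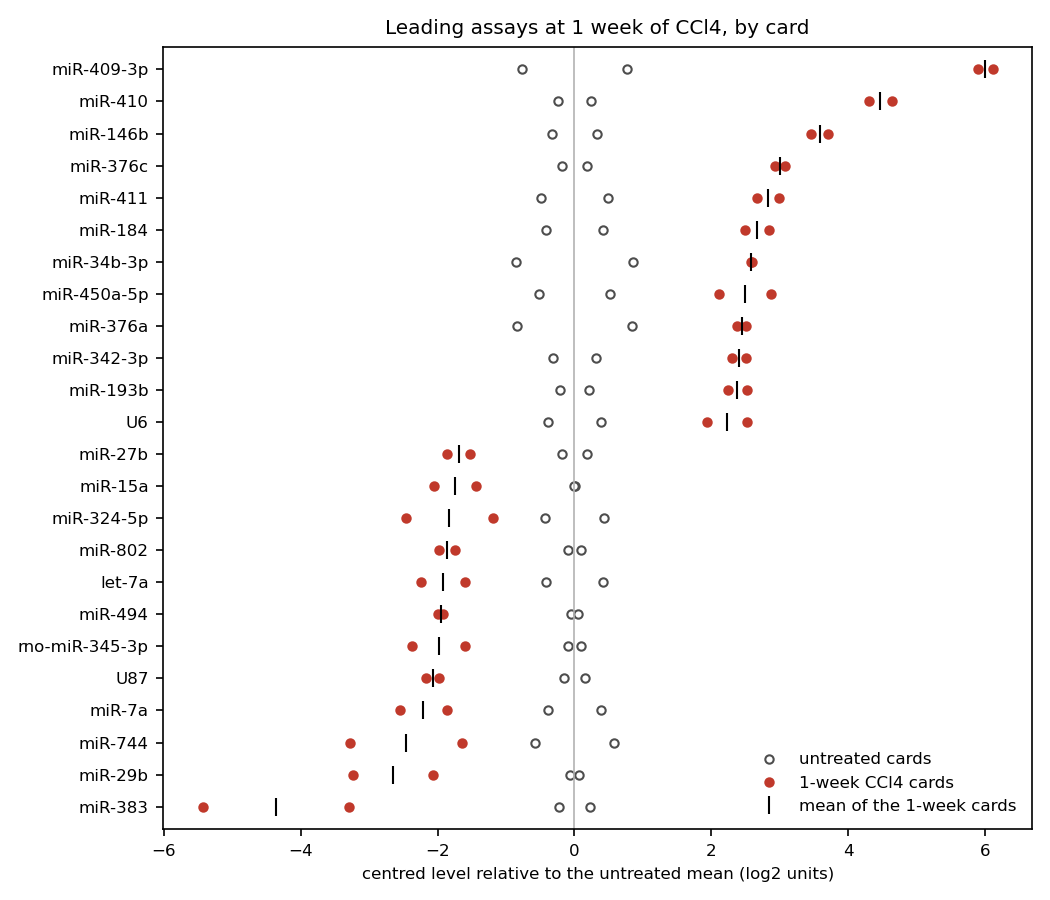
Centred level of each card (log2 units) relative to the mean of the untreated cards, for the 12 largest increases and 12 largest decreases that passed the test. Open points are the untreated cards, filled points the 1-week cards and ticks their mean. The 1-week cards of miR-409-3p sit about 6.0 above the untreated mean, and those of miR-383 lie apart from each other.

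The number of calls depended on single cards. It was 9 without untreated replicate 1, 34 without untreated replicate 2, 21 without 1 week replicate 1 and 12 without 1 week replicate 2, each of which leaves a group with a lone card that is assumed to vary like the others. Calls that passed with any of these 4 cards left out numbered 7, those of miR-184, miR-193b, miR-494, U87, miR-146b, miR-410 and miR-409-3p. All other calls named below were lost without at least 1 of the 4 cards, and the called differences kept their sign in each of those fits. Of the uncalled ones given by value below, miR-17, miR-27a, miR-30e, miR-145, miR-148b, miR-199a-3p, miR-126-5p, miR-200b, miR-221 and miR-486 changed sign in at least 1 alternative. With centring on the geometric mean Ct of each card, the kind of normalization the methods of the study name, 32 of the 56 calls were kept. In the lists described below that setting called 5 of 13 Dlk1-Dio3 miRNAs higher and 1 lower. It called 3 of 5 leukocyte and 1 of 5 NF-kB and inflammation miRNAs higher. Lower were 5 of 9 let-7, 1 of 3 miR-29 and 1 of 5 hepatocyte miRNAs. Without any normalization, 6 assays passed.

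**Figure D2:**
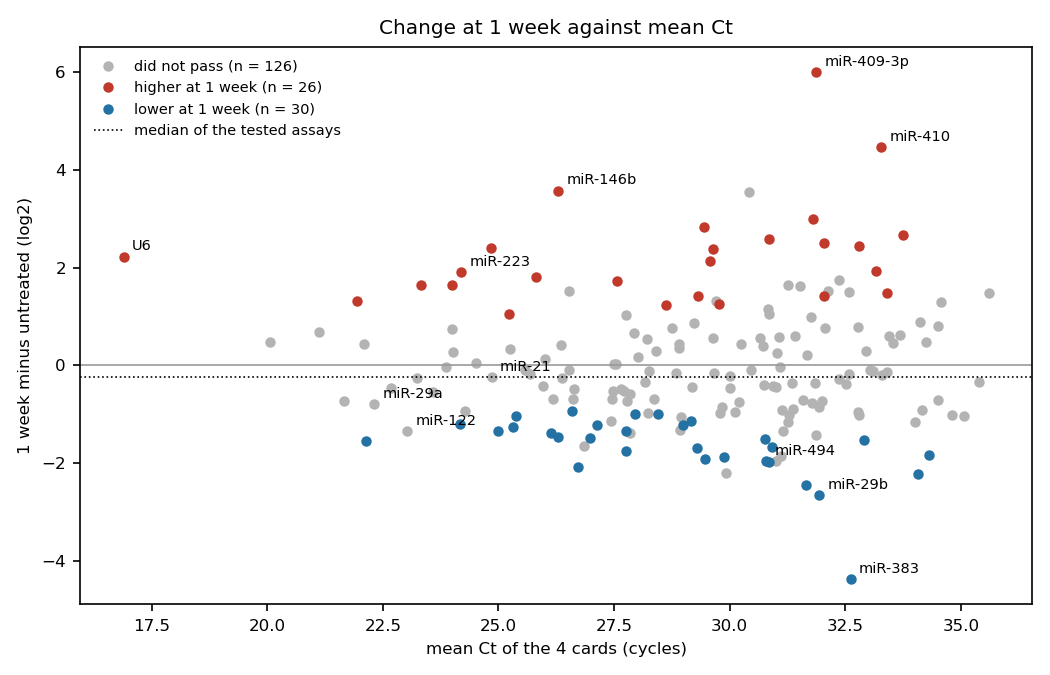
Log2 difference of 1 week minus untreated against the mean Ct of the 4 cards (cycles), 1 point per assay, coloured by the test. Called assays occur along the whole range of Ct, from U6 at the lowest to miR-410, miR-184 and miR-7a among the high values.

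The Dlk1-Dio3 region holds a large cluster of imprinted miRNAs, and its miRNAs are abundant in embryo and placenta and low in adult liver. miR-409-3p, the largest increase of all assays, had Ct values of 35.65 and 33.72 untreated and 29.24 and 28.85 at 1 week. The untreated cards were nearly 2 cycles apart, and both 1-week cards lay far below them in Ct. The log2 difference was 6.0 ± 0.50 (SE, n = 2 cards per group, adjusted p = 0.00066), or 64.1-fold. It was 5.24 without untreated replicate 1 and 6.77 without untreated replicate 2. miR-410, the last miRNA of the cluster, had Ct values of 35.76 and 34.89 untreated and 31.47 and 30.96 at 1 week, a difference of 4.47 ± 0.33 (adjusted p = 0.00057) or 22.2-fold. Both were near the limit of the method in untreated liver, so their folds rest on high untreated Ct values.

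Nearer the start of the cluster, miR-376c went from 33.50 and 32.74 to 30.64 and 30.32 (log2 difference 3.00 ± 0.60, adjusted p = 0.014). miR-411 went from 31.37 and 29.99 to 28.46 and 27.97 (2.83 ± 0.55, adjusted p = 0.013). Each of these pairs of cards was separated from the other group by more than the spread within either. miR-376a had Ct values of 34.88 and 32.80 untreated and 31.91 and 31.61 at 1 week, with the untreated cards the farther apart, and differed by 2.44 ± 0.71 (adjusted p = 0.041), or 1.60 with its call lost without untreated replicate 1. miR-379, the first miRNA of the cluster, went from 30.70 and 30.24 to 28.64 and 28.74 (2.14 ± 0.50, adjusted p = 0.021).

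On the side of the region antisense to Rtl1, miR-434-3p rose from Ct 34.04 and 33.85 to 32.56 and 32.17 (log2 difference 1.94 ± 0.29, adjusted p = 0.0057) and miR-127 from 33.14 and 31.98 to 32.04 and 30.96 (1.42 ± 0.42, adjusted p = 0.041). These are increases in level, seen as lower Ct. The call of miR-127 was lost without any single one of the 4 cards and under most other normalizations. miR-136, miR-337-5p and miR-337-3p had log2 differences of 1.51, 1.31 and 0.89 and did not pass.

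In all, 13 miRNAs of the region could be tested, of which 8 rose and 1 fell, with a median log2 difference of 1.94 against -0.23 over all assays. Of all 182 assays, 14.3% were called higher and 16.5% lower. A further 15 assays of the region were determined on some of the 4 cards and 18 on none of them. The median was 1.5 with quantile normalization and 2.49 among assays with a mean Ct below 32. The exception was miR-494, which lies between miR-411 and miR-376c. Its Ct values of 29.89 and 29.38 untreated and 32 and 31.90 at 1 week gave a log2 difference of -1.95 ± 0.26 (adjusted p = 0.0055), with little spread within either group. miR-667, the next testable miRNA along the locus, was at -0.91 (adjusted p = 0.18). Another 3 assays of the region, which could not be tested, had both 1-week cards determined and 1 untreated card undetermined. miR-134, the foremost of them, was undetermined and at 32.82 untreated and at 29.33 and 28.99 at 1 week. miR-431 was determined on both 1-week cards and neither untreated card. Among the other partly determined members, miR-433 was at 32.61 and 31.73 untreated and at 32.73 on 1 of the 1-week cards, and miR-381, miR-369-3p and rno-miR-758 were each determined on 1 untreated card and on neither 1-week card.

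**Figure D3:**
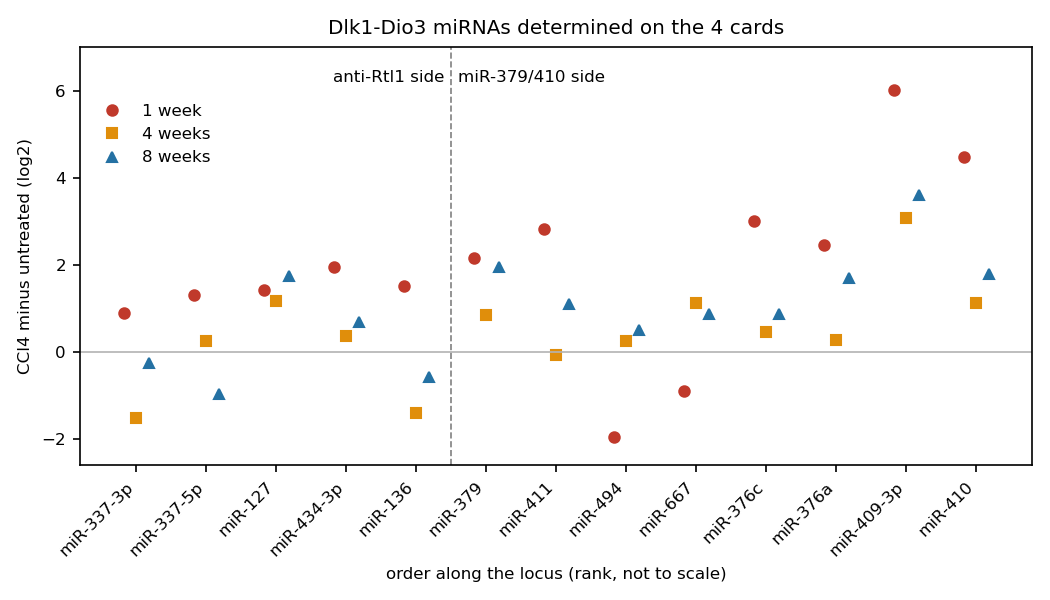
Log2 differences from the untreated cards at 1, 4 and 8 weeks for the 13 testable Dlk1-Dio3 miRNAs, in their order along chromosome 12 (rank, not to scale). All times share the same untreated cards. The 1-week points of miR-409-3p and miR-410 are the highest of their columns, and that of miR-494 is the lowest of its column.

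In the list of miRNAs linked to inflammation or to NF-kB, a transcription factor of the inflammatory response, 4 of the 5 tested rose. The list median was 1.25, and a part of NF-kB in these changes was not tested. Over all 182 assays, 14.3% were called higher. With centring on all determined assays, the card median or the geometric mean, 1 of the 5 passed. The same number passed with scaling to the control RNAs or with no normalization. miR-146b, which with miR-146a dampens Toll-like receptor signalling by repressing Traf6 and Irak1, had Ct values of 28.43 and 27.37 untreated and 24.64 and 24.72 at 1 week. The 1-week cards agreed within 0.1 cycle of each other and lay below both untreated cards, and the log2 difference was 3.58 ± 0.48 (adjusted p = 0.0055), or 12-fold. miR-146a, with the same seed, went from 24.65 and 23.26 to 22.79 and 22.57, a difference of 1.64 ± 0.46 (adjusted p = 0.038). Its untreated cards were the farther apart, and the call was lost without untreated replicate 1 or either 1-week card.

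miR-155, a miRNA of activated macrophages and lymphocytes, went from Ct 30.61 and 29.80 to 29.66 and 28.97 (log2 difference 1.25 ± 0.32, adjusted p = 0.026). miR-132 went from 29.17 and 28.97 to 28.42 and 27.97 (1.24 ± 0.30, adjusted p = 0.024). The calls of both were lost without any single one of the 4 cards, and also with scaling to the control RNAs. miR-21, which is raised in many injured and fibrotic tissues, was at 24.95 and 24.16 untreated and 25.04 and 25.26 at 1 week, and its difference of -0.23 did not pass (adjusted p = 0.60).

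Of the 5 leukocyte miRNAs tested, 4 rose, against 14.3% of all 182 assays called higher, and the list median was 1.82. miR-342-3p, expressed from an intron of Evl in blood cells, had Ct values of 26.36 and 25.34 untreated and 24 and 23.62 at 1 week. Both 1-week cards were more than 1 cycle below the lower untreated card, and the log2 difference was 2.40 ± 0.36 (adjusted p = 0.0057). miR-223, the neutrophil and monocyte miRNA, went from 25.35 and 24.58 to 23.28 and 23.56 (1.91 ± 0.30, adjusted p = 0.0071), or 3.75-fold. miR-150, a miRNA of mature lymphocytes, went from 26.95 and 26.14 to 25.28 and 24.90 (1.82 ± 0.31, adjusted p = 0.0093). The calls of all 3 were lost without untreated replicate 1, and that of miR-150 also without 1 week replicate 2.

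The 2 arms of the pan-leukocyte miR-142 hairpin differed. miR-142-5p went from Ct 33.97 and 33.94 to 33.13 and 32.55 (log2 difference 1.48 ± 0.30, adjusted p = 0.014), whereas miR-142-3p went from 27.93 and 27.69 to 28.57 and 28.47 (-0.35, adjusted p = 0.42). The difference between the arms was not itself tested. The erythroid markers did not pass, with miR-451 at -1.01 (adjusted p = 0.099) and miR-486 at 0.03.

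All 5 hepatocyte-enriched miRNAs tested had log2 differences below 0, from -0.73 to -1.87, and 2 of them fell by the test, with a list median of -0.94. Over all 182 assays, 106 had differences below 0 and 16.5% were called lower. miR-802 had Ct values of 29.06 and 28.46 untreated and 30.96 and 31.02 at 1 week. Its 1-week cards were nearly alike and lay about 2 cycles above the untreated ones, and the log2 difference was -1.87 ± 0.28 (adjusted p = 0.0057), a call lost without 1 week replicate 2. miR-148a went from 26.01 and 25.88 to 27.21 and 27.28 (-0.94 ± 0.28, adjusted p = 0.041), a call lost under each other normalization and without any 1 of the 4 cards. miR-122, the most abundant hepatocyte miRNA, was at -1.35 ± 0.51 and did not pass (adjusted p = 0.087), nor did miR-194 at -0.94 (adjusted p = 0.077) or miR-192 at -0.73 (adjusted p = 0.20). The lower hepatocyte levels stood beside the higher leukocyte levels on the same cards, and the part of cell composition in either was not tested.

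**Figure D4:**
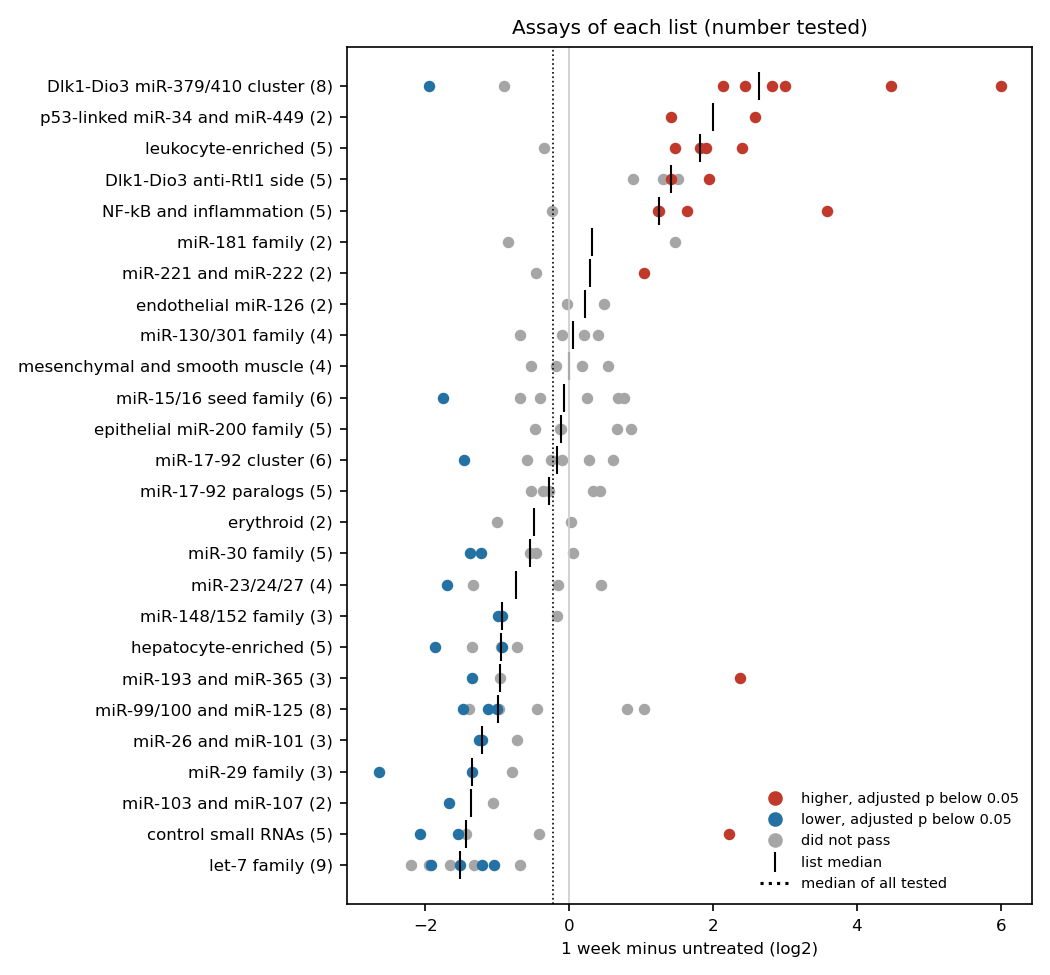
Log2 difference of 1 week minus untreated for each tested assay of the lists with 2 or more tested members, with the list median as a tick and the median of all 182 assays as a dotted line. The medians of the leukocyte and Dlk1-Dio3 lists lie to the right, with miR-494, miR-667 and miR-142-3p on the left of 0, and all members of the let-7 and miR-29 families lie to the left.

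Each of the 3 miR-29 family members was lower at 1 week, and 2 passed, where 106 of all 182 assays were below 0 and 16.5% were called lower. miR-29b had Ct values of 30.56 and 30.30 untreated and 32.94 and 33.94 at 1 week, so the untreated cards were close and the 1-week cards 1 cycle apart. The log2 difference was -2.65 ± 0.48 (adjusted p = 0.010), a level 6.27-fold lower. It was -3.23 without 1 week replicate 1 and -2.06 without 1 week replicate 2, and the call was lost without the latter and without untreated replicate 1. miR-29c went from 24.16 and 24.11 to 26.13 and 25.56 (-1.35 ± 0.33, adjusted p = 0.024), and miR-29a, whose sequence differs from that of miR-29c at 1 base, from 21.70 and 21.78 to 22.94 and 22.86 (-0.80 ± 0.28, adjusted p = 0.073). The miR-29a difference did not pass, although its 1-week cards lay above both untreated cards in Ct.

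The let-7 family, which represses growth and cell-cycle genes in differentiated cells, was lower in all 9 members tested, with a median log2 difference of -1.52, and 4 of the 9 passed. Of all 182 assays, 106 were below 0 and 16.5% were called lower. let-7a went from Ct 28.12 and 28.55 to 31.02 and 30.21 (-1.92 ± 0.45, adjusted p = 0.022). miR-98 went from 32.29 and 31.63 to 33.72 and 33.96 (-1.52 ± 0.29, adjusted p = 0.012). let-7f and let-7g were at -1.21 (adjusted p = 0.021) and -1.04 (adjusted p = 0.042). The call of let-7g was lost under each other centring and with quantile normalization, and that of let-7f with centring on the card median, all determined assays or the geometric mean. With all cards used, let-7c had the largest difference of the family, at -2.20, from Ct 27.95 and 29.34 to 31.44 and 30.97. Its untreated cards were 1.39 cycles apart, so the size and rank of this difference depended on untreated replicate 1. let-7c did not pass (adjusted p = 0.060). let-7b, let-7e, let-7d and let-7i lay between -1.95 and -0.68 and did not pass either. The median of the family was -1.10 without untreated replicate 1.

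In 5 further lists with medians below that of all assays, between 1 and 3 members fell, and 16.5% of all 182 assays were called lower. miR-26a and miR-26b fell by similar amounts, with log2 differences of -1.21 ± 0.25 (adjusted p = 0.016) and -1.25 ± 0.29 (adjusted p = 0.021), and miR-101a was at -0.72 (adjusted p = 0.31). In the miR-30 family 2 of 5 fell, miR-30a at -1.38 (adjusted p = 0.016) and miR-30d at -1.22 (adjusted p = 0.020), while miR-30e was at 0.05. miR-107 fell by 1.67 on the log2 scale (adjusted p = 0.034), or by 0.996 with its call lost without 1 week replicate 2, and miR-103, with the same seed, was at -1.06 (adjusted p = 0.053). In the list of the miR-10, miR-99, miR-100 and miR-125 miRNAs, 3 of 8 fell, namely miR-10b, miR-10a and miR-99a, the last at -1.0 and miR-10b at -1.48. None of the 3 calls held with centring on the card median, all determined assays, the geometric mean or the assays below Ct 35. Nor did any hold with no normalization or with undetermined values at Ct 40. miR-125a-5p was at 1.04 (adjusted p = 0.051). miR-152 and miR-148a, of the same seed, were at -0.99 (adjusted p = 0.044) and -0.94, and the third member, miR-148b, at -0.17. With centring on the geometric mean, neither miR-26 assay and neither of miR-152 and miR-148a passed.

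Of 20 seeds with 2 or more tested miRNAs among the matched sequences, 8 had members on both sides of 0. The miR-193 pair was the widest. miR-193b had Ct values of 30.63 and 30.65 untreated and 28.84 and 28.40 at 1 week, a log2 difference of 2.38 ± 0.30 (adjusted p = 0.0055), with the groups nearly 2 cycles apart. miR-193 was at 29.96 and 28.97 untreated and 30.31 and 31.25 at 1 week, a difference of -0.95 (adjusted p = 0.24), or -0.40 without 1 week replicate 2. miR-365, which lies near both miR-193 genes, fell from 26.97 and 26.83 to 28.83 and 28.38 (-1.34 ± 0.30, adjusted p = 0.019).

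In the miR-15/16 seed family 1 of 6 passed, a share like that of all assays called lower. miR-15a went from 26.90 and 26.51 to 28.59 and 29.04 (log2 difference -1.75 ± 0.46, adjusted p = 0.029), a call lost with centring on the card median, quantile normalization, no normalization or undetermined values at Ct 40, while miR-16, encoded beside it in Dleu2 and beside miR-15b in Smc4, was at 0.68 (adjusted p = 0.32) and miR-15b at 0.76 (adjusted p = 0.27). miR-27b went from 28.28 and 28.25 to 30.24 and 30.40 (-1.69 ± 0.29, adjusted p = 0.0093), and miR-27a, which differs from it at 1 base, was at -0.15. In the cluster that runs from miR-17 to miR-92a, miR-20a fell by 1.46 on the log2 scale (adjusted p = 0.031), and the other 5 members, miR-17 among them at 0.28, did not pass. The call of miR-20a was lost with quantile normalization, no normalization, undetermined values at Ct 40 and centring on the card median, all determined assays or the geometric mean. miR-222 was at 1.05 (adjusted p = 0.027) and its cluster partner miR-221 at -0.46 (adjusted p = 0.36). The call of miR-222 was lost with scaling to the control RNAs, with no normalization, with a fit to the 4 cards alone and with centring on the card median, all determined assays or the geometric mean. The calls of miR-15a, miR-20a and miR-222 were also lost without any 1 of the 4 cards. Differences between members of a pair were not tested.

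Markers of other cell types did not pass. The mesenchymal miRNAs miR-214, miR-199a-3p, miR-145 and miR-143 were at 0.55, 0.18, -0.18 and -0.53, the endothelial miR-126-3p and miR-126-5p at 0.49 and -0.03, and the 5 members of the epithelial miR-200 family between -0.48 and 0.86. None of the 5 tested members of the paralogs of that cluster or of the 4 of the miR-130 and miR-301 family passed, nor did miR-181a and miR-181c (-0.84 and 1.48) or the hypoxia-linked miR-210 (-1.14, adjusted p = 0.14).

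Both testable miRNAs of the p53-responsive miR-34 genes rose, against 14.3% of all 182 assays called higher. The miR-34b assay measures the 3p arm, whose seed differs from that of miR-34a. miR-34a went from Ct 29.97 and 29.70 to 28.60 and 28.97, a log2 difference of 1.41 ± 0.31 (adjusted p = 0.017). The call of miR-34a was lost without any single one of the 4 cards. miR-34b-3p went from 33.02 and 30.91 to 29.83 and 29.65, a difference of 2.59 ± 0.63 (adjusted p = 0.024). Its 1-week cards were close and its untreated cards 2.11 cycles apart, and the call was lost without untreated replicate 1 or either 1-week card. With centring on the card median, all determined assays or the geometric mean, 1 of the 2 miR-34 assays passed. The same held with undetermined values at Ct 40, and neither passed with no normalization. miR-449a, which has the seed of miR-34a, was undetermined on both untreated cards and at 31.89 and 33.34 at 1 week.

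The remaining leading changes belonged to no list. miR-184 rose from Ct 34.68 and 35.11 to 32.50 and 32.68 (log2 difference 2.67 ± 0.39, adjusted p = 0.0057), and miR-450a-5p, from the X chromosome cluster with miR-322, from 32.78 and 33.42 to 31.43 and 30.50 (2.50 ± 0.61, adjusted p = 0.024). Both were low in untreated liver. miR-383 had the largest decrease, from 30.22 and 30.28 to 34.00 and 35.96 (-4.37 ± 0.91, adjusted p = 0.020), or 20.6-fold. Its untreated cards agreed and its 1-week cards were 1.96 cycles apart, so the difference was -3.30 without 1 week replicate 2 and -5.43 without 1 week replicate 1, and the call was lost without the former and without either untreated card.

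miR-744 went from 29.86 and 30.61 to 33.96 and 32.15 (-2.46 ± 0.65, adjusted p = 0.031), with a wide spread at 1 week, and miR-7a from 32.61 and 32.98 to 35.80 and 34.94 (-2.21 ± 0.39, adjusted p = 0.0097). The rat assay rno-miR-345-3p went from 29.79 and 29.57 to 32.50 and 31.55 (-1.98 ± 0.38, adjusted p = 0.012), and miR-324-5p from 33.86 and 32.59 to 34.87 and 35.96 (-1.83 ± 0.49, adjusted p = 0.032). The difference of miR-324-5p was -1.20, with its call lost, without 1 week replicate 2. With undetermined values set to Ct 40, the calls of miR-383, miR-744 and miR-324-5p were lost. The muscle miRNA miR-133a did not pass and depended on single cards. Its Ct values were 33.73 and 30.30 untreated and 30.87 and 26.78 at 1 week, which overlapped before centring, and its log2 difference was 3.55 ± 1.53 (adjusted p = 0.12), from 1.59 without 1 week replicate 2 to 5.51 without 1 week replicate 1.

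Small RNAs used as endogenous controls did not stay level. U6, the spliceosomal RNA, had Ct values of 18.42 and 17.24 untreated and 15.76 and 16.17 at 1 week, a log2 difference of 2.23 ± 0.45 (adjusted p = 0.014), while U87 went from 25.85 and 25.15 to 27.93 and 27.94 (-2.07 ± 0.30, adjusted p = 0.0057) and snoRNA202 from 21.28 and 21.08 to 23.19 and 22.98 (-1.54 ± 0.32, adjusted p = 0.014). With quantile normalization the difference of U6, the assay with the lowest Ct on each of the 4 cards, was 0, and the calls of U6 and snoRNA202 were lost. In the other settings, scaling to U6, snoRNA135 and snoRNA202 included, U6 stayed above 0 and U87 and snoRNA202 below it. snoRNA135 and Y1 were at -0.42 and -1.43 and did not pass.

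Assays that were determined in 1 group only were not tested. Both untreated cards and neither 1-week card gave a Ct for 9 assays: miR-375, miR-202-3p, miR-345-3p, miR-542-3p, miR-294, miR-741, miR-590-5p, miR-9 and miR-96. Their mean untreated Ct ran from 33.04 for miR-375, at 33.29 and 32.79, to 35.81 for miR-96. Both 1-week cards and neither untreated card gave a Ct for 6 assays. The lowest was miR-431 of the Dlk1-Dio3 region, at 32 and 31.82, followed by miR-449a, rno-miR-347 at 31.99 and 33.44, miR-467c at 34.01 and 32.47, rno-miR-381 at 34.07 and 34.65, and miR-135b at 36.96 and 33.66. The mouse assay for miR-381, also of the Dlk1-Dio3 region, was undetermined on both 1-week cards and at 36.98 on 1 untreated card, so the rat and mouse assays of that name differed. An undetermined well bounds the level only by the sensitivity of its assay, and most of these values lay at high Ct, where replicate cards were farther apart.

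Whether the first week differed from the later weeks was tested against the mean of the 4 later cards. All mice were the same age at the start, so those treated longer were older at collection. Weeks of CCl4 and age therefore cannot be told apart in this comparison. Of the 168 assays determined on all 8 cards, 73 passed (43.5%), 37 of them higher (22%) and 36 lower (21.4%) at 1 week. In the Dlk1-Dio3 region, 8 were higher at 1 week than later and 2 lower. miR-410 had log2 differences from untreated of 4.47, 1.12 and 1.79 at 1, 4 and 8 weeks, and its level at 1 week was above the later mean by 3.02 (adjusted p = 0.0010). miR-409-3p was at 6.0, 3.07 and 3.59 (1 week minus later 2.67, adjusted p = 0.0043), and miR-411 at 2.83, -0.08 and 1.09 (2.32, adjusted p = 0.0091). miR-494 was below untreated only at 1 week in these means, with -1.95, 0.24 and 0.50 (-2.32, adjusted p = 0.0010).

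**Figure D5:**
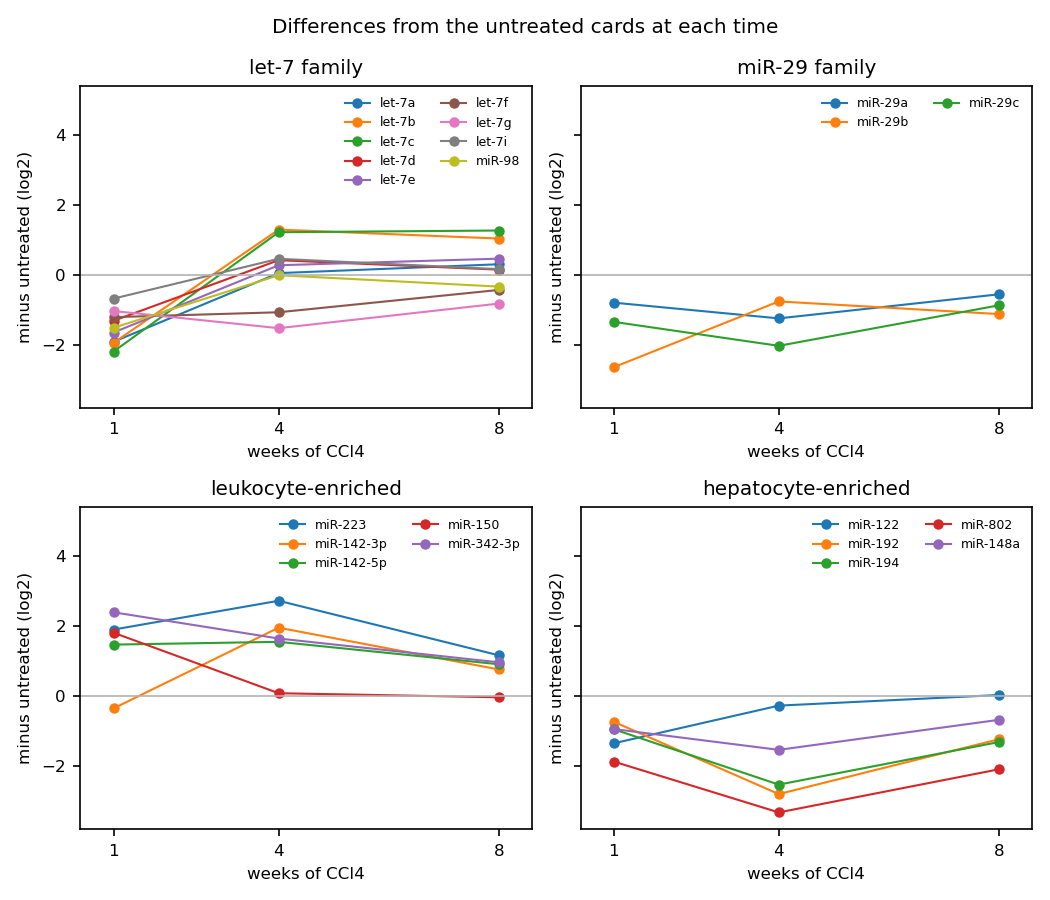
Log2 differences from the untreated cards at 1, 4 and 8 weeks for the let-7, miR-29, leukocyte-enriched and hepatocyte-enriched lists, 1 line per miRNA, each point a difference of means of 2 cards. All 9 let-7 members are below 0 at 1 week, and let-7b and let-7c are above 0 later.

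In the let-7 family, 7 of the 9 members were lower at 1 week than later, against 21.4% of all 168 assays. let-7c was at -2.20, 1.22 and 1.27 at 1, 4 and 8 weeks (1 week minus later -3.44, adjusted p = 0.0063), and let-7b at -1.95, 1.29 and 1.04 (-3.11, adjusted p = 0.011). let-7f and let-7g, which had passed against untreated, did not differ between 1 week and later by the test (adjusted p = 0.16 and 0.68). Within the miR-29 family, miR-29b was lower at 1 week than later (-1.70, adjusted p = 0.015), with differences from untreated of -2.65, -0.76 and -1.12. miR-29a and miR-29c, each 0.11 above the later mean, did not differ (adjusted p = 0.73 and 0.76).

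Of the 5 NF-kB and inflammation miRNAs, 1 passed this comparison, against 43.5% of all 168 assays. miR-146b was at 3.58, 1.16 and 0.56 (1 week minus later 2.73, adjusted p = 0.0038), while miR-146a, miR-155, miR-132 and miR-21 were above or below the later mean by 0.88, 0.54, -0.37 and -0.56 and did not pass. Of the 5 leukocyte miRNAs, 2 were higher and 1 lower at 1 week, against 22% and 21.4% of all 168 assays. The lymphocyte miR-150 was at 1.82, 0.09 and -0.03 (1.79, adjusted p = 0.0038). miR-223 was at 1.91, 2.73 and 1.17 and did not differ from the later mean (-0.04, adjusted p = 0.89). miR-142-3p was at -0.35, 1.96 and 0.77 and was lower at 1 week than later (-1.71). Of the 5 hepatocyte miRNAs, 3 were higher at 1 week than later, against 22% of all 168 assays. These were miR-802 at -1.87, -3.32 and -2.09, miR-192 at -0.73, -2.80 and -1.23, and miR-194 at -0.94, -2.53 and -1.31 (adjusted p = 0.029, 0.020 and 0.030). miR-122 was at -1.35, -0.27 and 0.04 (-1.23, adjusted p = 0.050, just above the threshold). The endothelial miR-126-3p was at 0.49, -1.87 and -0.97 (1.91, adjusted p = 0.0064). With 1 week replicate 2 left out, 23 assays passed this comparison, and with 1 week replicate 1 left out, 36. Scaling to the control RNAs changed the split to 20 higher and 74 lower.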

How the data were processed

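Total liver RNA was reverse transcribed without pre-amplification and measured with TaqMan rodent microRNA cards (set A). The authors deposited the Ct of each assay on each card, not normalized, with undetermined wells empty. A table of the authors' own fold changes was not used. How the threshold was set is not given in the sources used here.

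Levels were centred per card on 168 assays and fitted as 4 groups of 8 cards in all by lmFit and eBayes (limma 3.58.1, R 4.3.3), with Benjamini-Hochberg adjustment over 182 assays, or 168 for the comparison with later weeks. For 14 of the 182, values at later weeks were missing and the fit had fewer degrees of freedom. Named were the 12 largest called changes in each direction with non-overlapping cards, all list members and the assays determined in 1 group only. The members and lists were chosen with earlier results of these data known. The alternatives were other centrings, Ct limits of 35 and 32, undetermined values at Ct 40, a replicate block, a trend, fewer cards and an adjusted p of 0.10. The fit was also run on simulated cards with independent errors and no missing values. Such data cannot address the dependence of the calls on single cards. Figures were drawn with matplotlib 3.10.9. The number of cards limits the precision.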

Additional observations from a re-analysis of the deposited data

Results flagged for a closer look

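The change from untreated differed between 1 week and the later times for 53 of the 120 named assays with a test against untreated. This was by limma's test of 1 week minus the mean of 4 and 8 weeks, at an adjusted p of 0.05. Over all 168 assays in that test, 73 passed (43.5%). Weeks of CCl4 and age at collection cannot be told apart in it. Values are log2 differences of 1 week minus later. In the Dlk1-Dio3 region they were 3.02 for miR-410, 2.67 for miR-409-3p, 2.51 for miR-136, 2.34 for miR-376c, 2.32 for miR-411, 1.78 for miR-337-3p, 1.67 for miR-337-5p, 1.42 for miR-434-3p, -1.90 for miR-667 and -2.32 for miR-494. In the let-7 family they were -3.44 for let-7c, -3.11 for let-7b, -2.09 for let-7a, -2.02 for let-7e, -1.60 for let-7d, -1.34 for miR-98 and -0.99 for let-7i.

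Inflammatory and leukocyte miRNAs were at 2.73 for miR-146b, 1.79 for miR-150, 1.09 for miR-342-3p and -1.71 for miR-142-3p. Hepatocyte, endothelial, epithelial and erythroid miRNAs were at 1.29 for miR-192, 0.98 for miR-194, 0.84 for miR-802, 1.91 for miR-126-3p, 1.24 for miR-126-5p, 1.91 for miR-429, 0.95 for miR-200a and -1.60 for miR-451. Other miRNAs higher at 1 week than later were miR-16 at 2.12, miR-193b at 1.66, miR-30e at 1.57, miR-193 at 1.52, miR-24 at 1.24, miR-222 at 1.16, miR-106a at 0.89 and miR-30c at 0.88.

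Those lower at 1 week than later were miR-744 at -3.16, miR-324-5p at -3.10, miR-7a at -1.94, miR-125b-5p at -1.72, miR-29b at -1.70, miR-181a at -1.65, miR-99b at -1.50, miR-20a at -1.23, miR-497 at -1.10, miR-10a at -0.99, miR-221 at -0.96, miR-99a at -0.84 and miR-27b at -0.78. The control RNAs U6, Y1 and snoRNA202 were at 3.58, -2.16 and -1.19. Scaling to U6, snoRNA135 and snoRNA202 moves all of these values together.

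The 6 assays determined on both 1-week cards and neither untreated card lie outside the test and gave mean Ct values at 1 week of 31.91 for miR-431, 32.6 for miR-449a, 32.7 for rno-miR-347, 33.24 for miR-467c, 34.36 for rno-miR-381 and 35.31 for miR-135b. Groups of 2 cards are too small for a check of single outlying cards.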

How the results depend on the processing

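None of the 56 assays that passed against untreated took the opposite sign under any of the alternatives run, and U6 was at 0 with quantile normalization. Among the 120 named assays with a test, 20 that had not passed changed sign in at least 1 alternative. The 56 calls became 37 (14 higher) with centring on all determined assays, 34 (16 lower) with centring on the card median, 36 (14 higher) with the geometric mean Ct of the card, the normalization the study's methods name, added here after seeing the data, and 6 (4 higher, 2 lower) with no normalization. With one card left out they ranged from 9 to 57, of which 6 to 25 were higher and 3 to 32 lower. The 73 calls against later weeks became 19 with no normalization (10 higher, 9 lower). In that comparison the higher calls were 24 with centring on all determined assays or on the geometric mean, and scaling to the control RNAs gave 20 higher and 74 lower. With one card left out they ranged from 23 to 84, 12 to 41 of them higher and 11 to 44 lower.

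With a replicate block 44 assays passed (22 higher, 22 lower), all of them among the 56, and 72 against later weeks. The differences between replicates 1 and 2 correlated at r = 0.02 between the untreated and 1-week groups over the 182 assays, which are not independent, so the numbers were not taken to pair the cards. Setting undetermined values to Ct 40 was not run for the comparison with later weeks. The other alternatives left each count within 1.5 times its value. Leaving out a card also leaves fewer samples in the fit. Ct values above 32 had the widest replicate spread, with a median SD of 0.54 untreated and 0.40 at 1 week.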
